A study of Mus musculus with 12 samples.

Results

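The comparison set CD4+ T cells recovered from the central nervous system (CNS) after adoptive transfer against the cultured Th17 cells used for such transfers, in experimental autoimmune encephalomyelitis (EAE). It used 6 of the 12 arrays of the series, chosen by their titles: 3 of transferred cells and 3 of cultured cells. Both groups descend from naive CD4+ T cells of B6.2d2 mice, which carry a transgenic T cell receptor for myelin oligodendrocyte glycoprotein (MOG). For the cultured group, naive cells were differentiated into Th17 cells in vitro. For the transferred group, such cells were given to lymphopenic Rag1-/- mice and isolated again when EAE symptoms peaked. The other 6 arrays, 3 of naive splenic CD4+ T cells of B6.2d2 mice and 3 of CNS CD4+ T cells at peak EAE in C57BL/6 mice that had received a MOG peptide (here the immunised group), entered the same model and gave reference levels. Age, sex, cell dose, days in culture, the pooling of animals and the method and purity of cell isolation are not given in the labels used here. Rag1-/- hosts make no mature T or B cells, but keep their own myeloid cells, microglia and natural killer cells.

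Th17 cells are helper T cells that develop under interleukin-6 and TGF-beta and secrete interleukin-17A, interleukin-17F and interleukin-22. Signals through the receptors for interleukin-23 and interleukin-1 maintain them, and GM-CSF (gene Csf2) made by T cells is needed for EAE in many settings. In the CNS they meet antigen again on host phagocytes, so RNA of a cell isolate from that tissue can hold transcripts of both.

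Levels are log2 processed signals with the 75th percentile of each array set to 0, and differences are transferred minus cultured on that log2 scale. Each value rests on 3 arrays a group, and that number limits the precision. Between 58.8% and 61.8% of non-control spots were well above background on each of the 6 arrays. Across genes, arrays correlated at 0.954 to 0.985 within the cultured group, 0.976 to 0.984 within the transferred group and 0.884 to 0.917 between them. Cultured replicate 3 stood apart for several genes described here. Its Ifng level was −4.22 against 1.42 and 4.26, and its Enpp2 level 6.08 against 1.94 and 2.14, on replicates 1 and 2. Each slide held 1 array of each group at a fixed position, so position on the slide and group cannot be told apart. The replicates came from 3 independent experiments, per the design text, which does not say whether a replicate number marks an experiment. The p-values measure the spread between samples within all groups of the series, taken as a shared value for each gene. Some genes varied far more in culture, such as Ifng (SD 4.32, against 0.74 after transfer). For these the shared value can understate the spread in culture.

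Of 18630 genes tested, 5267 (28.3%) passed an adjusted p of 0.05 in the limma model. In the transferred cells 2385 were higher (12.8%) and 2882 lower (15.5%), and the median difference of all genes was −0.10. Without transferred replicate 3 the lower count was 1907. The 3 arrays of one group lay wholly apart from the 3 of the other for 7699 genes (41.3%), with 3253 higher in the transferred cells (17.5%) and 4446 lower (23.9%). Differences can be read against the whole array or against T cell transcripts alone. Centring each array on the mean of 20 T cell core genes, which was 0.62 lower in the transferred cells, moved the median of all genes to 0.52. It also moved the split to 4510 higher (86.3% of calls) and 718 lower. All 2385 genes higher on the first scale were higher on the second too, while 718 of the 2882 lower genes were lower on both. In bulk RNA, fewer cells of a type and less RNA per cell cannot be told apart.

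The called genes were also sorted by their detection on the 6 arrays of naive and cultured cells. Of 17768 genes well above background on all 3 arrays of either group, 1859 were higher (10.5%) and 2880 lower (16.2%). A further 598 were detected on some of the 6 arrays but not on all 3 of either group, with 302 higher and 2 lower. The remaining 264 were detected on none of them, and of these 224 were higher. Both of these classes could pass the filter only through a CNS group. That favours higher calls among the 598 and fixes the direction of the 264. The same limit holds for every gene named below that neither group had well above background on all 3 arrays.

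**Figure D1:**
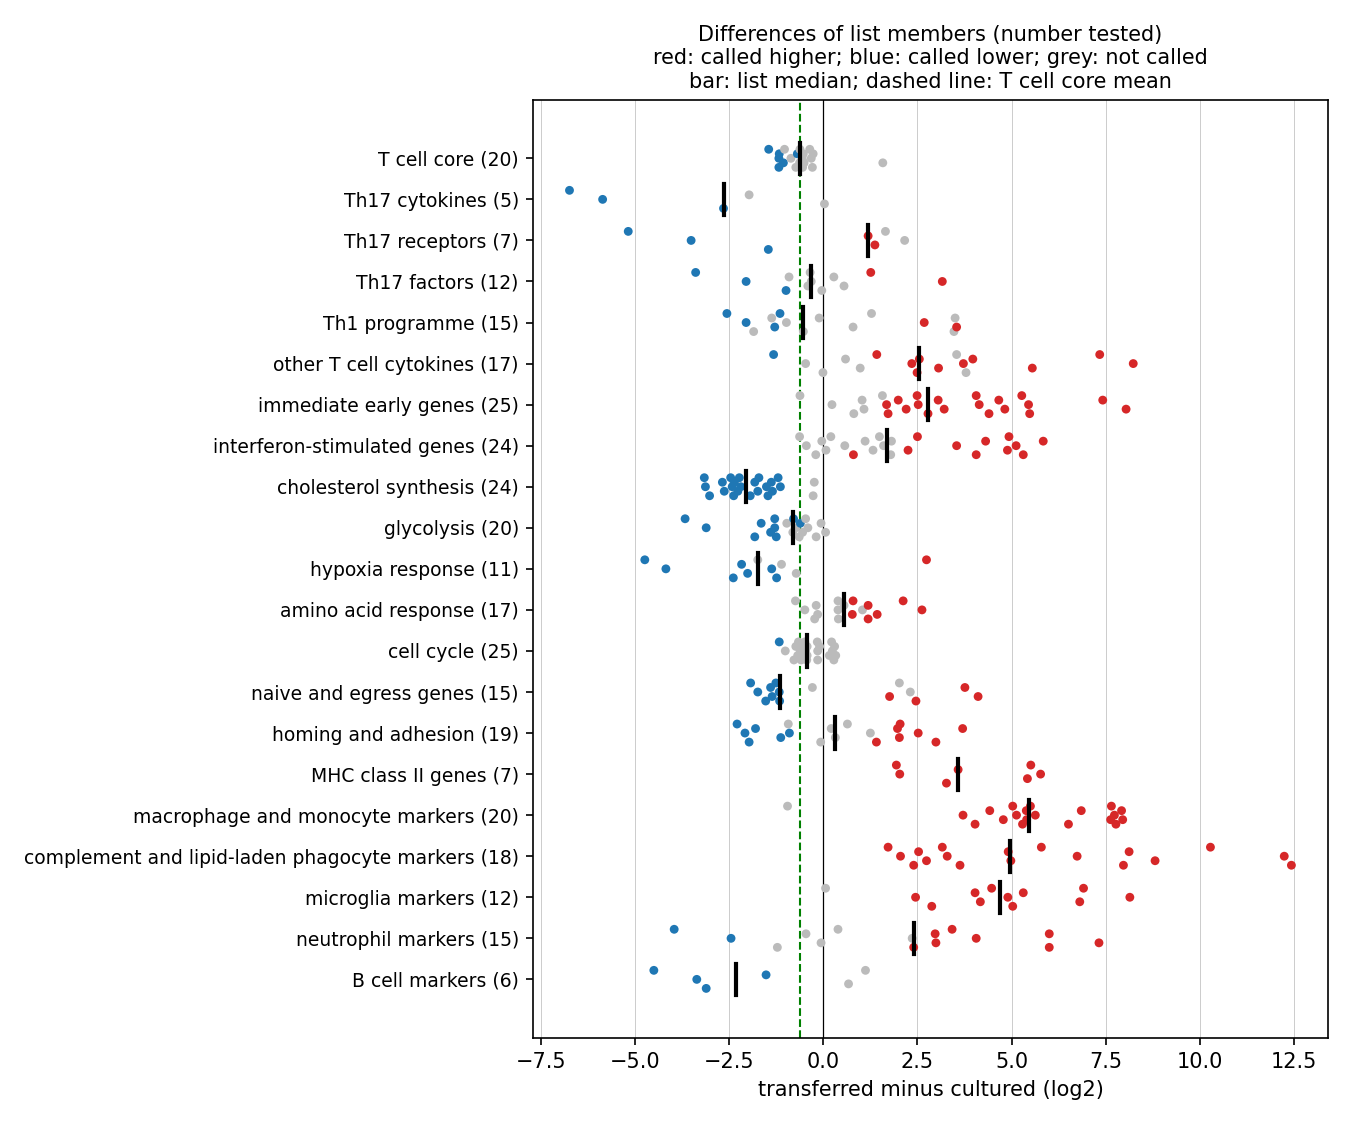
Each point is 1 gene at its difference between transferred and cultured cells (x axis, log2), in rows of gene lists with the number of members tested. Red and blue points passed an adjusted p of 0.05 as higher and lower, black bars are list medians, and the dashed line is the T cell core mean of −0.62. The cholesterol synthesis members lie left of that line apart from Pmvk and Ebp, and the phagocyte lists lie right of 0 apart from Itgam.

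Among genes well above background on all 6 arrays, the largest rises included several genes of phagocytes. Apoe, which encodes the lipid carrier apolipoprotein E, stood at −2.21, −2.37 and −1.51 on the cultured arrays and at 8.11, 8.5 and 8.15 on the transferred arrays. The groups lay far apart, by 10.28 ± 0.31 (SE; 1240-fold; adjusted p = 1.03e-07), and by 9.65 to 10.87 within the 3 slides. Next came Chil3 (9.57), a secreted chitinase-like protein of macrophages, C1qb (8.81), a chain of complement C1q, and Gdf15 (8.51), a stress-induced cytokine. Rab3il1 (8.17), Arg1 (8.13), the arginase of alternatively activated macrophages, Apoc2 (8.12), an apolipoprotein, and Fn1 (8.07), fibronectin, followed. Of genes below background on at least 1 cultured array, C1qc rose at least 3170-fold, Gm6522 at least 2040-fold and C1qa at least 2010-fold. The chemokine genes Ccl8 and Ccl7 rose at least 1690-fold and 1190-fold, and Sirpb1b, a signal regulatory protein gene, at least 597-fold. These bounds set the dim group at the lowest signal called above background on each array.

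The largest falls were of a different kind. Enpp2 encodes autotaxin, the secreted enzyme that makes lysophosphatidic acid. It stood at 1.94, 2.14 and 6.08 on the cultured arrays and at −4.02, −4.49 and −3.59 on the transferred arrays, with cultured replicate 3 far above the others. The difference was −7.42 ± 1.09 (adjusted p = 0.000743), −6.07 without cultured replicate 3, and −6.80 relative to the T cell core. Il17f, Il22 and Il23r were among the 8 largest falls and are described with the Th17 genes. Others were Gm4827 (−6.28), Prss12 (−5.38), a serine protease gene, and Csta2 (−5.20), a cysteine protease inhibitor gene. Among genes that dropped to background, Fam183b fell at least 169-fold, Foxf1, a forkhead factor gene, at least 102-fold, and Cxcr1, a chemokine receptor gene, at least 79.6-fold. Vldlr, the very low density lipoprotein receptor gene, fell at least 63.5-fold and Gipr, an incretin receptor gene, at least 51-fold. The transcript ENSMUST00000103410, which the files name by that identifier alone, fell at least 75.4-fold. All falls in this paragraph passed relative to the T cell core as well.

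Probe positions are on mm9 as the arrays' own annotation gives them. The Apoe probe lies at chr7:20281732-20281791, Fosb at chr7:19888168-19888227, Csf2 at chr11:54060772-54060799, Enpp2 at chr15:54670921-54670980 and Il17f at chr1:20768074-20769419. Whether they lie in coding exons or untranslated regions was not analysed here.

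T cell identity genes stayed well above background and were lower in part. All 20 T cell core genes, which encode the T cell receptor complex, its kinases and its adaptors, were well above background on all 6 arrays. Of these 6 were lower and 0 higher, against 15.5% and 12.8% over all genes. The median was −0.62, with −0.81 to −0.51 within slides. Cd4, the co-receptor gene, stood at 5.01, 5.12 and 4.88 in culture and at 4.50, 4.40 and 4.05 after transfer, without overlap. It fell by 0.69 ± 0.19 (SE) on the log2 scale (adjusted p = 0.0217), a call lost without transferred replicate 3 (adjusted p = 0.0839), cultured replicate 1 (0.0523) or cultured replicate 2 (0.061). Cd3d, Cd3g, Cd2, Skap1 and Cd247 fell by 1.06 to 1.45 on the log2 scale, with the largest fall in Cd247, the receptor's zeta chain. The Cd3g call was lost without transferred replicate 3 (adjusted p = 0.0534). Cd3e differed by −0.62 (adjusted p = 0.0514) and Lck, the kinase that starts receptor signalling, by −0.56 (adjusted p = 0.0597). The log2 summed level of the list was 9.54 to 9.73 in culture and 8.58 to 9.03 after transfer.

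The Th17 effector cytokines split. Of 5 measured members 3 were lower, against 15.5% over all genes. Il21 was at almost the same mean level, and Il24 differed without a call. Il17f stood at 4.77, 6.50 and 3.46 in culture and at −2.64, −1.0 and −1.84 after transfer. Every transferred array was below every cultured one, by −6.74 ± 0.79 (SE; adjusted p = 0.00017), and the call held relative to the T cell core at −6.12. Il17a stood at 5.46, 5.55 and 2.41 in culture and at 1.92, 1.86 and 1.68 after transfer. It was lower by −2.65 ± 0.80 (adjusted p = 0.031), but within the third slide by only −0.74, and leaving out any 1 array other than cultured replicate 3 ended the call (adjusted p of 0.064 to 0.103).

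Il22, which acts on epithelial cells, was 1.67, 4.17 and −2.04 in culture and −4.61, −4.82 and −4.37 after transfer, below its naive levels of −4.16 to −3.50. The difference was −5.86 ± 1.14 (adjusted p = 0.00368). Il21, an autocrine factor of Th17 and follicular helper cells, was 3.59, 4.84 and 3.90 in culture and 4.26, 4.17 and 4.0 after transfer, so the groups overlapped. Its difference was 0.03 ± 0.47 (adjusted p = 0.972), and naive cells were at −4.36 to −2.32.

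**Figure D2:**
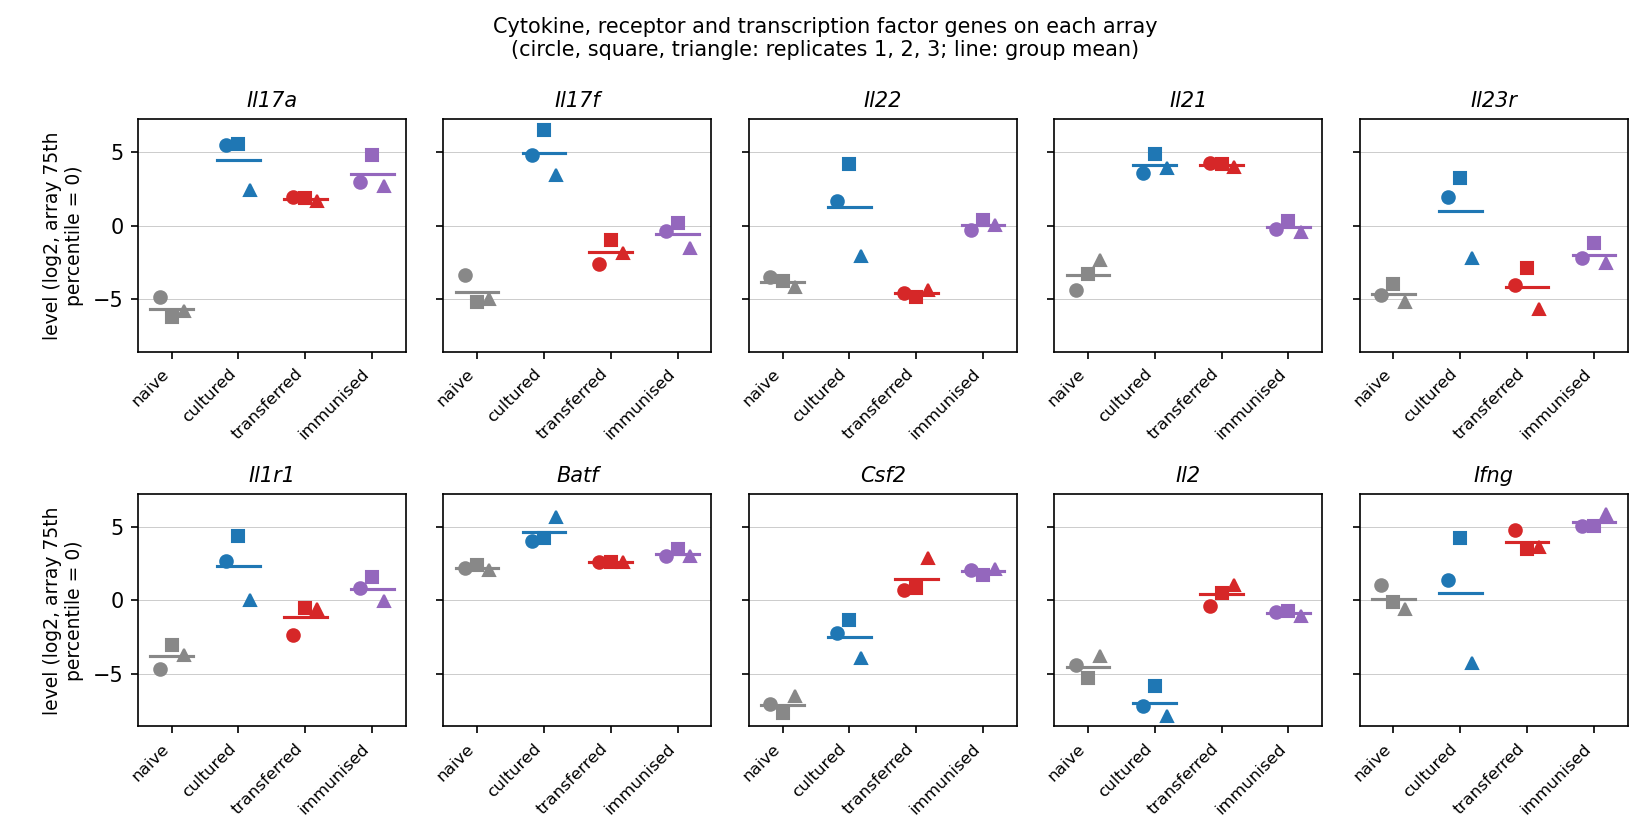
Points are the levels of 10 genes on each of the 12 arrays (y axis, log2 with the 75th percentile of the array at 0), with circles, squares and triangles for replicates 1, 2 and 3 and a line at each group mean. Il17f, Il22, Il23r, Il1r1 and Batf are lower on every transferred array than on every cultured one, Csf2 and Il2 are higher on every transferred array, and Il21 overlaps.

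Of 7 Th17 receptor genes, 3 were lower and 2 higher, against 15.5% and 12.8% over all genes. Il23r, the specific subunit of the interleukin-23 receptor, was 1.95, 3.24 and −2.18 in culture and −4.02, −2.85 and −5.65 after transfer. The groups did not overlap, with cultured replicate 3 nearest to the transferred arrays, and the difference was −5.18 ± 1.18 (adjusted p = 0.00891). The Il23r call was lost with only the 6 arrays compared in the model (adjusted p = 0.0535). Il1r1, an interleukin-1 receptor gene, was lower by −3.51 ± 0.97 (adjusted p = 0.0211). The call did not hold when cultured replicate 1 (adjusted p = 0.0588), cultured replicate 2 (0.0618) or transferred replicate 1 (0.0725) was left out. Il12rb1, the subunit shared by the interleukin-12 and interleukin-23 receptors, was lower by −1.46, a call not met relative to the T cell core (−0.84; adjusted p = 0.112). Both interleukin-6 receptor subunits rose, Il6ra by 1.19 and Il6st by 1.37. The chemokine receptor gene Ccr6 varied widely in culture (−1.40, 2.87 and −3.58) and was 1.04, 3.0 and 0.33 after transfer (difference 2.16; adjusted p = 0.262).

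Among 12 Th17 transcription factor genes, 3 were lower (5 without cultured replicate 1), 2 higher and 7 not called. The shares over all genes were 15.5% lower and 12.8% higher. Batf, which opens Th17 loci together with IRF4, was 4.03, 4.24 and 5.68 in culture and 2.64, 2.59 and 2.58 after transfer, and the groups did not overlap. The difference was −2.05 ± 0.36 (adjusted p = 0.00216). Hif1a, the hypoxia-inducible factor, fell by 0.99 on the log2 scale. Hif1a was at −0.37 relative to the T cell core (adjusted p = 0.345). Nfkbiz, an inducible nuclear IkappaB protein, rose by 3.16 and Ahr, the aryl hydrocarbon receptor, by 1.26. Rora, a nuclear receptor gene, differed by −0.91 (adjusted p = 0.0804), and Stat3, Irf4, Maf, Runx1, Bhlhe40 and Ikzf3 by −0.41 to 0.55 without a call.

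The Th1 programme did not move one way: 2 of 15 members were higher and 4 lower. Over all genes the shares were 12.8% and 15.5%, so the higher count was near the general share. Without cultured replicate 3 the lower count was 7, and without transferred replicate 2 the higher count was 1. Ifng was 1.42, 4.26 and −4.22 in culture and 4.81, 3.46 and 3.60 after transfer, so cultured replicate 2 lay inside the transferred range. Its difference was 3.47 ± 1.60 (adjusted p = 0.133), and 1.12 without cultured replicate 3 (adjusted p = 0.33). Without cultured replicate 2 it was 5.36 (adjusted p = 0.0154). Tbx21, the T-bet gene, differed by 1.28 (adjusted p = 0.164), and the chemokine receptor gene Cxcr3 by 3.50 (adjusted p = 0.0756), which passed without cultured replicate 1 (5.26; adjusted p = 0.00349). Relative to the T cell core both passed, Tbx21 at 1.90 (adjusted p = 0.0331) and Cxcr3 at 4.12 (0.0253), and the list stood at 5 higher and 2 lower. Fasl, the death receptor ligand, rose by 3.54 and Eomes, a T-box factor, by 2.68, the latter not called without transferred replicate 2 (adjusted p = 0.0522). The interleukin-12 receptor gene Il12rb2 fell by 2.56 on the log2 scale, the chemokine receptor gene Cxcr6 by 2.05, Runx3 by 1.29 and Stat4 by 1.15.

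Of 17 cytokine genes of recently activated T cells, 10 were higher after transfer and 1 lower, against 12.8% higher and 15.5% lower over all genes. Of the 11 members well above background on all 6 arrays 6 were higher. Csf2 was −2.22, −1.33 and −3.91 in culture and 0.70, 0.87 and 2.88 after transfer. The rise was 3.97 ± 0.68 (15.6-fold; adjusted p = 0.0019) and 4.59 relative to the T cell core. Il2, the T cell growth factor, was well above background on 1 of 3 cultured arrays and stood at −0.35, 0.51 and 1.07 after transfer, at least 71.5-fold higher. Ccl1, a chemokine of activated T cells, was at least 180-fold higher and Xcl1, which attracts cross-presenting dendritic cells, at least 16.3-fold.

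Il3, a haematopoietic growth factor, rose by 3.72, Osm, a cytokine of the interleukin-6 family, by 3.06 and Tnf by 2.55. The Tnf call was lost with the slide as a block (adjusted p = 0.0653) and without any 1 array other than cultured replicate 2 (0.0546 to 0.122). The TNF family ligands Tnfsf11 (2.35) and Tnfsf8 (1.42) rose, and Cd40lg rose at least 3.29-fold. Ltb, the membrane anchor of lymphotoxin, was lower by −1.32. Il4 and Il13, cytokines of Th2 cells, differed by 3.79 and 3.54 without a call (adjusted p of 0.189 and 0.146). Myeloid cells also transcribe Tnf and Osm, and the summed macrophage and monocyte list rose from 5.09 to 6.00 in culture to 8.81 to 9.52 after transfer. Its part in these rises was not tested.

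Among cytokines that myeloid and stromal cells make, 6 of 9 were higher and 0 lower, against 12.8% and 15.5% over all genes. Of the 6 well above background on all 6 arrays 3 were higher. Il1b stood at 0.08, 1.92 and −3.07 in culture and at 5.36, 6.18 and 5.69 after transfer, a rise of 6.10 ± 1.01 (adjusted p = 0.00148). Il6, an inducer of Th17 cells, rose by 5.07, and Il1a at least 24.1-fold. Of 14 chemokine genes 13 were higher (12.8% over all genes), and 6 of the 7 well above background on all 6 arrays. Of the 14, 3 (Ccl7, Ccl12 and Cxcl13) were not well above background on any cultured or naive array, so only a CNS group let them pass the filter. The same holds for Ccl8, Ccl2 and Cxcl2, which were well above background on 2 cultured arrays and on no naive one. Ccl2 and Ccl12, which recruit monocytes, rose at least 582-fold and 320-fold and Cxcl2, which recruits neutrophils, at least 380-fold. Ccl3, Ccl4 and Ccl5, which T cells and phagocytes both secrete, rose by 4.58, 5.03 and 3.32. Ccl5 lost its call without transferred replicate 2 (adjusted p = 0.0677), cultured replicate 1 (0.0508) or cultured replicate 3 (0.0544). Cxcl3 differed by 0.77 (adjusted p = 0.708). The phagocyte lists given below moved with these genes, and how much each cell type contributed was not tested.

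Immediate early genes, which are transcribed within minutes of receptor engagement or stress, were higher as a group. Of 25 measured 19 were higher and 0 lower, against 12.8% higher over all genes, with a median of 2.78 and 2.54 to 3.38 within slides. Fosb, an AP-1 subunit, was −3.82, −3.45 and −2.64 in culture and 4.53, 4.49 and 5.18 after transfer. The groups were separated by 8.04 ± 1.35 (263-fold; adjusted p = 0.00163). Fos, its best known relative, was −2.86, −1.50 and −0.57 in culture and 5.65, 5.74 and 5.93 after transfer, a rise of 7.42. On naive arrays Fos stood at 5.29, −1.08 and 2.45, so that group spanned nearly the whole range between the other groups.

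The transcription factor genes Atf3 and Klf4 rose by 5.45 and 5.48 and the phosphatase gene Dusp1, which switches off MAP kinases, by 5.27. Nr4a1, an orphan receptor gene used as a reporter of T cell receptor signals, rose by 4.40, and Egr1 and Egr2, zinc finger factors of the same pathway, by 3.21 and 4.14. Jun, Junb, Jund, Ier2, Arc and Myc were not called, with Myc at −0.62 (adjusted p = 0.0506). The phagocyte lists rose on the same arrays, and their part in this list was not tested.

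Promoters of 2 immediate early members are shown as examples of the motifs found, a full cAMP response element in Dusp1 and a CArG box in Egr2. Each line gives the 250 bases before the start site, 5′ to 3′ in gene orientation, from the RefSeq table (GRCm38.p6), with the match in capitals. Dusp1 lies at chr17:26508473-26508722 on the minus strand and Egr2, for 1 of its 5 listed start sites, at chr10:67537316-67537565 on the plus strand.
Dusp1: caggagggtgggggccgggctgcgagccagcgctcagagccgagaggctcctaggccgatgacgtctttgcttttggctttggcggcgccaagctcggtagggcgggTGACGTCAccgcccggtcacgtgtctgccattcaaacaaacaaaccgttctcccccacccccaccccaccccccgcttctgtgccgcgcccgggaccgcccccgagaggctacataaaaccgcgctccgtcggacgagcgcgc
Egr2: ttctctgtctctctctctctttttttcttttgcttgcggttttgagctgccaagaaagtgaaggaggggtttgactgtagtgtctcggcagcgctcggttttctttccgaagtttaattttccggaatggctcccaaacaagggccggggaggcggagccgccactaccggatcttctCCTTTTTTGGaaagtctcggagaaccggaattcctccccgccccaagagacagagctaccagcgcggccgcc
Over windows of 300 bases (250 before and 50 after the start), 21 of the 25 tested members had a promoter in the table. The cAMP response element TGACGTCA was in those of 3 members (14.3%), against 2.03% of all 27025 genes in the table counted in the same way, on either strand. Its core TGACG, which the full element contains, was in 14 (66.7%) against 23.0%, and the CArG box, bound by serum response factor, in 2 (9.52%) against 1.81%. A gene counted once if any of its promoters matched. Of the 32851 promoters themselves 1.79%, 20.8% and 1.63% held the 3 motifs.

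Of 12 NF-kappaB genes 5 were higher and 2 lower, against 12.8% and 15.5% over all genes. The higher count was 2 without cultured replicate 1, transferred replicate 1 or transferred replicate 3. Rel, the subunit induced on T cell activation, rose at least 5.05-fold, and the inhibitor genes Nfkbid by 3.30, Tnfaip3 by 2.41 and Nfkbia by 1.15. Rel was not well above background on any cultured or naive array, so it passed the filter only through a CNS group, which fixes its direction. Tnfaip3 and Nfkbia lost their calls with the slide as a block (adjusted p of 0.0569 and 0.0797). Tnfaip3 also lost it without any 1 array but cultured replicate 3 (0.0719 to 0.113), and Nfkbia without transferred replicate 1 (0.0737) or 3 (0.177) or cultured replicate 1 (0.118) or 3 (0.133). Nfkb1 rose by 0.63, whereas Traf1, a signalling adaptor gene, and Bcl3, a nuclear cofactor gene, fell by 2.54 and 2.01 on the log2 scale.

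Cholesterol synthesis was the most uniform fall among the lists. Of 24 genes 22 were lower and 0 higher, against 15.5% lower over all genes. The 3 transferred arrays lay below the 3 cultured ones for 22 genes, against 23.9% over all genes. The median was −2.06, with −2.19 to −1.79 within slides. Relative to the T cell core, 17 of the 24 were lower, with a median of −1.44. Fdps, which makes farnesyl diphosphate, stood at 4.84, 4.67 and 5.21 in culture, at 1.73, 1.95 and 1.65 after transfer and at 2.08 to 2.81 in naive cells. The groups were separated by −3.13 ± 0.21 (8.73-fold lower; adjusted p = 8.27e-06).

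Hsd17b7 (−3.16), Sqle (−2.68) and Idi1 (−2.63), enzymes of the same pathway, were among the other largest falls. Hmgcs1, an early synthase of the pathway, was 4.26, 4.25 and 4.32 in culture and 1.71, 2.0 and 2.05 after transfer, and it fell by 2.36 on the log2 scale. Srebf2, the factor that drives the pathway, fell by 1.94 on its brightest probe. The mean over its probes differed by −0.13 (adjusted p = 0.779), so its probes disagree. Pmvk and Ebp differed by −0.24 and −0.27 without a call.

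Hmgcs1 was the 1 tested member whose promoter window held the sterol regulatory element, searched on either strand with the fifth base free. The match was TCACCCCAC. Its 250 upstream bases at chr13:119690101-119690350 on the plus strand (GRCm38.p6, from RefSeq) are shown with that match in capitals.
Hmgcs1: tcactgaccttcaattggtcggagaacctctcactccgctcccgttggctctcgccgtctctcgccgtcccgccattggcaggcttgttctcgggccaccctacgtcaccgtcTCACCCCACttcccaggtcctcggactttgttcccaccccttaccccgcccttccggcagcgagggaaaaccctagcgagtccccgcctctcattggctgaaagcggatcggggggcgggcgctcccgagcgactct
Of 17 members with a promoter in the table, 1 held the element (5.88%), against 1.44% of all genes in the table and 1.24% of all promoters of that length. A window without these letters says nothing about other forms of the element.

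**Figure D3:**
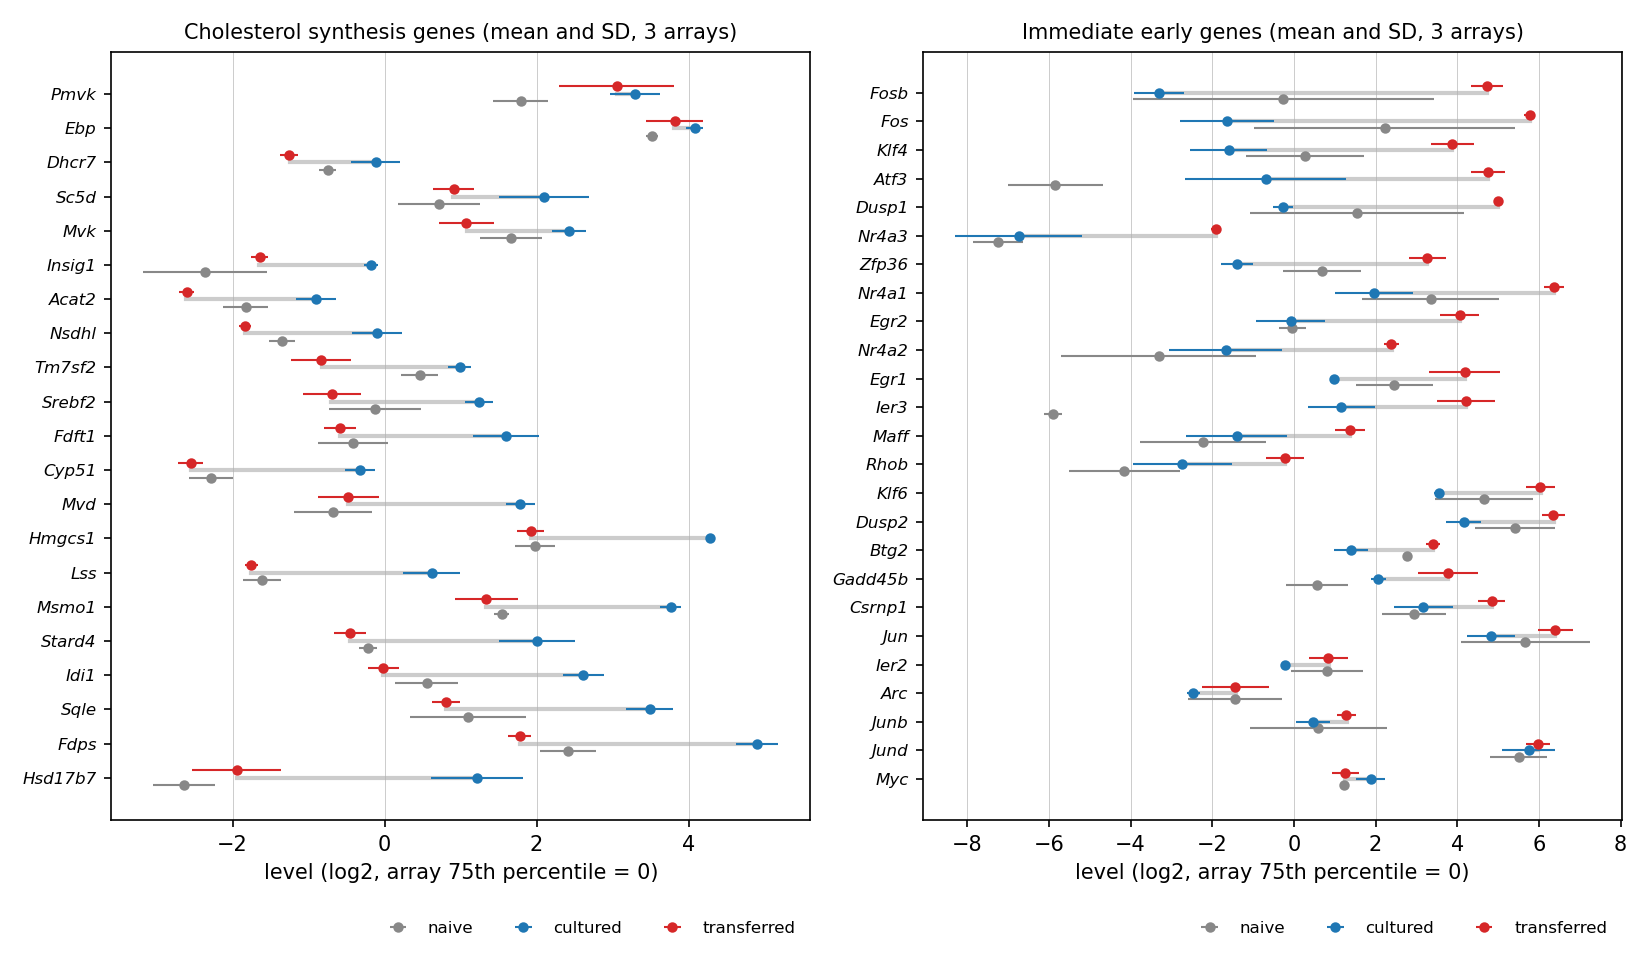
Points are mean levels with SD over 3 arrays (x axis, log2 with the array's 75th percentile at 0) for naive, cultured and transferred cells, and grey bars join the cultured and transferred means. The cholesterol panel shows 21 of the 24 tested genes, of which 19 passed as lower after transfer, and in the immediate early panel 19 of 25 passed as higher.

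Of 20 glycolysis genes 10 were lower on the array scale and 0 higher, against 15.5% lower over all genes, with a median of −0.80. Relative to the T cell core 2 were lower (median −0.18). Without transferred replicate 1 or cultured replicate 3 the count on the array scale was 6. The 2 lower relative to the T cell core were Slc2a3, a glucose transporter gene, and Aldoc, an aldolase gene. Slc2a3 was 3.48, 4.10 and 5.95 in culture and 1.34, 0.30 and 0.88 after transfer, a difference of −3.67 ± 0.52 (adjusted p = 0.000579). Aldoc differed by −3.11 ± 0.47 (adjusted p = 0.000812). Pgk1, Pfkm, Pdk1 and Pkm fell by 1.82, 1.65, 1.40 and 1.29 on the log2 scale. Ldha, lactate dehydrogenase, was lower by −0.61 (adjusted p = 0.0404) at 0.01 relative to the T cell core, and not called without cultured replicate 3 (0.101) or transferred replicate 1 (0.127), 2 (0.0711) or 3 (0.0575). Without transferred replicate 3 Pfkm was not called (0.0641). Hk2 and Slc2a1, the first enzyme and the main glucose transporter of activated T cells, differed by −0.19 and −0.47 without a call.

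Hypoxia response genes included 7 lower and 1 higher of 11, against 15.5% and 12.8% over all genes. P4ha2, a collagen hydroxylase subunit gene, was 0.32, 1.76 and 4.12 in culture and −2.84, −3.05 and −2.12 after transfer, lower by −4.74 ± 0.76 (adjusted p = 0.00124). Adm, adrenomedullin, fell by 4.18 on the log2 scale, Egln3, an oxygen sensor, by 2.39 and Ddit4, an inhibitor of mTORC1, by 2.17. These 4 were also lower relative to the T cell core. Cultured replicate 3 was the highest array for Adm, P4ha2 and Egln3, and without it P4ha2 differed by −3.71 and Adm by −3.12. Vegfa, the vascular growth factor, moved the other way and rose by 2.74 ± 0.67 (adjusted p = 0.0122).

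Of 17 amino acid response genes 7 were higher (4 without transferred replicate 3) and 0 lower, against 12.8% and 15.5% over all genes. They included the transporter genes Slc7a3 (2.12), Slc3a2 (1.43) and Slc7a5 (1.19) and the serine synthesis gene Phgdh (1.19), while Atf4, Asns and Ddit3 were not called. Slc7a5 was among those not called without that array (adjusted p = 0.0765). Cell cycle genes hardly separated: 1 of 25 was lower and 0 higher, against 15.5% and 12.8% over all genes. The lower gene was Aurka (−1.17), and the lower count was 3 without cultured replicate 2. Mki67, a proliferation marker, was 4.24, 3.81 and 3.92 in culture and 4.05, 4.42 and 4.21 after transfer, above the naive levels of −0.09 to 1.66. Relative to the T cell core, 3 cell cycle genes were higher and 0 lower.

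Among genes of quiescence, lymph node homing and egress, 4 of 15 were higher and 8 lower, against 12.8% and 15.5% over all genes. The lower count was 4 without cultured replicate 1 or without transferred replicate 3. Klf2, the factor that maintains quiescence and trafficking genes, was 1.80, 0.95 and −0.27 in culture and 5.38, 4.25 and 5.18 after transfer, against 5.29 to 7.0 in naive cells. It rose by 4.11 ± 0.56 (adjusted p = 0.000483). Klf3 rose by 3.76, the gut homing receptor gene Ccr9 by 2.46 and Ccr7, the lymph node homing receptor gene, by 1.76. S1pr1, the receptor for egress from lymph nodes, which KLF2 is known to drive, was 1.67, 1.43 and 1.68 in culture and 1.17, −0.50 and −0.48 after transfer. It fell by 1.53 on the log2 scale, with −0.91 relative to the T cell core (adjusted p = 0.0731), and was not called without transferred replicate 2 (0.087) or 3 (0.0905) or cultured replicate 1 (0.0601) or 3 (0.0534). Satb1, a chromatin organiser, Il7r, the interleukin-7 receptor, and the factor genes Lef1, Foxo1 and Bach2 fell by 1.93, 1.40, 1.26, 1.17 and 1.16. Tcf7 differed by −0.29 (adjusted p = 0.789). Relative to the T cell core, 6 of the 15 genes were higher and 3 lower.

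In the homing and adhesion list 7 of 19 were higher and 6 lower, against 12.8% and 15.5% over all genes. Relative to the T cell core 8 were higher and 0 lower. The higher count was 3 without any 1 transferred array. The lower count was 2 without cultured replicate 1 or transferred replicate 1 and 3 without transferred replicate 2. Cd69, which retains T cells in tissue by binding S1PR1, was −0.26, 0.66 and −1.59 in culture and 3.82, 2.89 and 3.20 after transfer. It rose by 3.70 ± 0.65 (adjusted p = 0.00213). Ccr8 rose by 2.99, the adhesion molecule gene Mcam by 2.04 and the integrin genes Itga4 and Itgb1, which form VLA-4, by 1.97 and 1.41. Itga1 rose at least 3.19-fold and the co-receptor gene Cd226 at least 4.81-fold. Itgb3, Gpr183, Ccr4, Ccr2, Itgb7 and Selplg were lower by −2.29 to −0.90. Ccr8, Cd226, Itga4, Itgb3, Gpr183 and Ccr2 each lost their call in at least 2 of the 6 fits without 1 array (adjusted p of 0.0511 to 0.148). Cxcr4 differed by 0.64 (adjusted p = 0.267).

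Of 16 lipid mediator genes 6 were higher and 5 lower, against 12.8% and 15.5% over all genes. Beside Enpp2, Ltb4r1, the leukotriene B4 receptor gene, fell from 5.65, 5.67 and 5.58 to 2.54, 2.93 and 3.40, a difference of −2.68 ± 0.39 (adjusted p = 0.000695). The prostaglandin receptor genes Ptgir and Ptger2 fell by 1.61 and 1.54 on the log2 scale, and Lpar2, a lysophosphatidic acid receptor gene, at least 2.63-fold, while Ptger4 rose by 2.11. The cyclooxygenase genes Ptgs1 and Ptgs2 rose by 6.58 and 5.02 and Alox5ap, which activates 5-lipoxygenase, by 5.31. Phagocytes also express these genes, and their lists rose on the same arrays, but how much each cell type contributed was not tested.

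The regulatory T cell list held 4 higher and 3 lower genes of 14, against 12.8% and 15.5% over all genes. It held 2 higher ones without cultured replicate 1, transferred replicate 2 or transferred replicate 3. Foxp3, its defining factor, was −3.41, −3.79 and −2.75 in culture and −3.65, −2.45 and −1.40 after transfer, overlapping groups that differed by 0.81 (adjusted p = 0.272). In immunised mice its mean was 1.75. Il2ra, the high-affinity interleukin-2 receptor gene, was 5.95, 6.25 and 5.13 in culture and 2.75, 3.09 and 3.35 after transfer, and it fell by 2.71 ± 0.28 on the log2 scale (adjusted p = 8.97e-05). Ctla4 fell by 1.58 and Lrrc32 by 2.53. Entpd1 and Nt5e, the ectoenzymes that turn extracellular ATP into adenosine, rose at least 12.3-fold and by 2.07, Nrp1 at least 6.25-fold and Tnfrsf9 by 1.84. Nrp1 and Lrrc32 lost their calls in 4 of the 6 fits without 1 array (adjusted p of 0.0526 to 0.138).

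Of 12 co-inhibitory genes 3 were higher and 0 lower, against 12.8% and 15.5% over all genes. The 3 were Cd274 (1.60), which encodes PD-L1, Cd200 (1.40) and Cd160, at least 2.66-fold. Pdcd1, Havcr2 and Lag3, encoding PD-1, TIM-3 and LAG-3, differed by 0.45, 0.47 and 1.05 without a call. Cd274 was not called in 4 of the 6 fits without 1 array (adjusted p of 0.0589 to 0.0607). Of 11 heat shock genes 3 were higher, against 12.8% over all genes, and 1 without cultured replicate 1 or transferred replicate 3. Hspa1a, the inducible HSP70 gene, rose at least 37.8-fold, Hspb1 by 3.54 and the co-chaperone gene Bag3 by 0.90, while the constitutive Hspa8 differed by 0.07. Hspb1 was not called without transferred replicate 1 (adjusted p = 0.0707) or 3 (0.11) or cultured replicate 1 (0.105) or 2 (0.0716), nor Bag3 without transferred replicate 3 (0.0633) or cultured replicate 1 (0.0674).

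Interferon-stimulated genes, induced by type I interferon as antiviral defence, were higher in 11 of 24 cases and lower in 0. Over all genes 12.8% were higher and 15.5% lower. The list median was 1.70 (0.63 to 2.82 within slides). Oasl1 stood at −3.28, −2.90 and −3.84 in culture and at 2.44, 2.44 and 2.62 after transfer, a rise of 5.84 ± 0.45 (adjusted p = 1.42e-05). On naive arrays it was 1.85 to 3.15, close to the transferred range. Oas2, Oas1a, Rsad2 and Irf7 rose by 4.93, 4.89, 4.31 and 2.25, Oasl2 at least 34.2-fold and Ifi44 at least 18.3-fold. Isg15 and Ifit1, often used as reporters, differed by 1.49 and 1.60 without a call (adjusted p of 0.11 and 0.184), with cultured replicate 3 lowest for both. Without transferred replicate 2 the count of higher genes was 7, with Irf7 not called (adjusted p = 0.0604), and without cultured replicate 3 the list median was 0.73. Of the 17 tested members with a promoter in the table, 9 held an interferon-stimulated response element (52.9%), against 3.99% of all genes in the table and 3.44% of all promoters. The element was searched as a repeated GAAA with any 2 bases between, on either strand.

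Transcripts that mark phagocytes were much higher in the transferred samples. Of 20 macrophage and monocyte markers 19 were higher and 0 lower, against 12.8% and 15.5% over all genes. The list had 15 members well above background on all 6 arrays, of which 14 were higher. Lyz2, lysozyme, was −2.92, −1.88 and −5.52 in culture and 3.62, 5.32 and 3.64 after transfer, at least 199-fold higher. Adgre1, the F4/80 gene, rose by 7.73 and Cd68 by 4.42, and Fcgr1, the high-affinity IgG receptor gene, rose at least 129-fold. Itgam, which encodes CD11b, stood against the list at 3.94, 4.54 and 4.23 in culture, 3.72, 3.06 and 3.07 after transfer and 4.48 to 6.58 in naive cells. That pattern came from its brightest probe (−0.95; adjusted p = 0.153), whereas the mean over its probes differed by 1.42, past the threshold, so its probes disagree.

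All 18 complement and lipid-laden phagocyte markers were higher (12.8% over all genes), 15 of them well above background on all 6 arrays. Trem2, a lipid receptor of phagocytes, was −1.92, −0.95 and −1.89 in culture and 4.62, 5.34 and 5.50 after transfer, a rise of 6.74 ± 0.45 (adjusted p = 7.29e-06). Mertk, which binds apoptotic cells, rose at least 160-fold. All 5 alternatively activated macrophage markers were higher, 3 of them well above background on all 6 arrays. Clec10a rose at least 84.3-fold. Retnla, at least 74.7-fold higher, was not well above background on any cultured, naive or immunised array, so it passed the filter only through the transferred group, which fixes its direction. Of 12 microglia markers 11 were higher, and 6 of 7 among those measured on all 6 arrays. P2ry12, a defining microglial receptor, rose at least 37.9-fold, Cx3cr1 at least 245-fold and Tmem119 by 4.03. Siglech was high in all groups and differed by 0.06 (adjusted p = 0.843). All 7 MHC class II genes were higher, among them H2-Aa by 5.77 and Cd74 by 5.42.

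**Figure D4:**
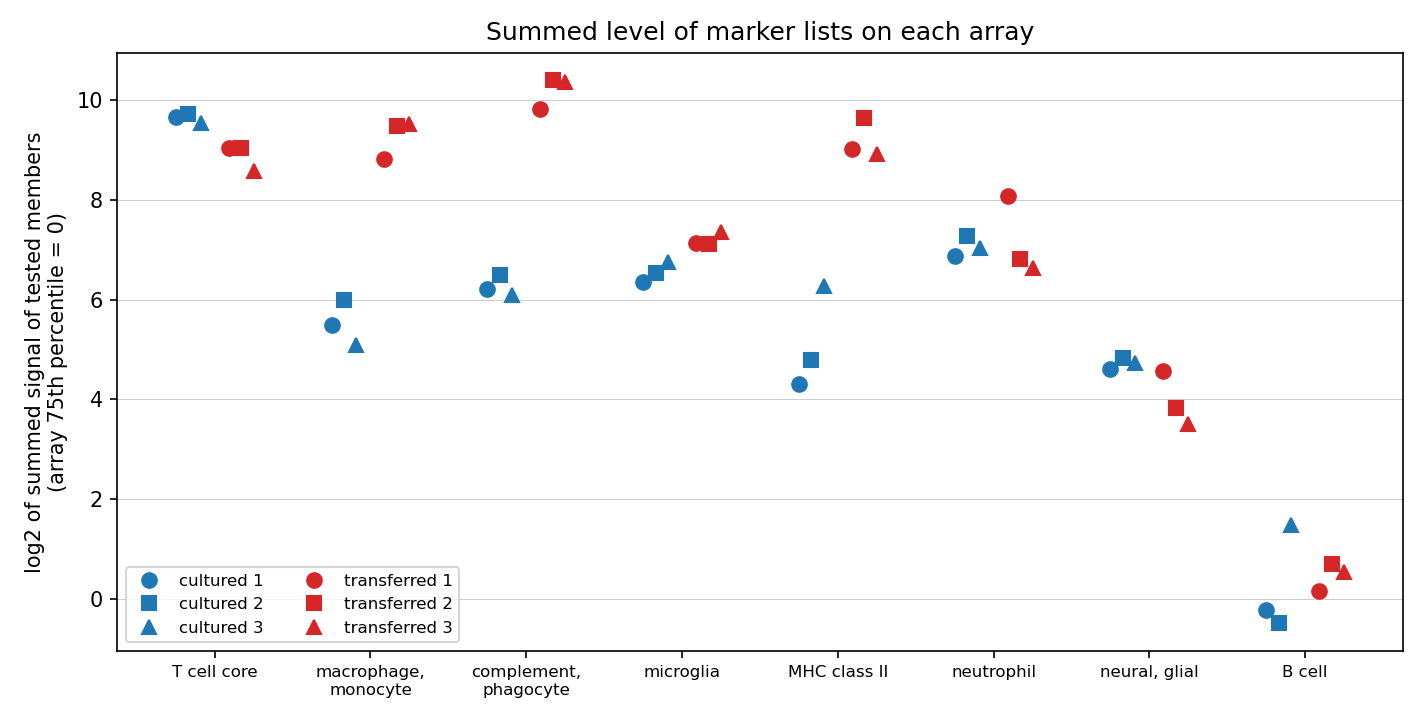
Points are the log2 summed signal of the tested members of 8 marker lists (y axis, array 75th percentile at 0) on the 3 cultured (blue) and 3 transferred (red) arrays. Sums are compared within a list only. The macrophage and monocyte list spans 5.09 to 6.00 in culture and 8.81 to 9.52 after transfer, the T cell core spans 9.54 to 9.73 and 8.58 to 9.03, and transferred replicate 1 is highest for neutrophil markers.

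Of 15 neutrophil markers 8 were higher and 2 lower, against 12.8% and 15.5% over all genes. Among the higher ones 5 were well above background on all 6 arrays, and the transferred arrays differed widely. S100a8, a granule alarmin, was 0.65, −0.40 and 0.52 in culture and 5.45, 3.44 and 0.81 after transfer. Its difference of 2.97 ± 0.88 (adjusted p = 0.0287) was lost without transferred replicate 1 (1.86; adjusted p = 0.0645), transferred replicate 2 (adjusted p = 0.0768), or cultured replicate 1 or 2. S100a9, another marker of the list, was 1.90, 0.58 and 2.10 in culture and 6.74, 4.41 and 0.52 after transfer. Its groups overlapped, and it was not called (difference 2.36, adjusted p = 0.162). Retnlg and Ltf, secreted by neutrophils, rose at least 55.8-fold and 15.6-fold, with transferred replicate 3 lowest for both. Neither was well above background on any cultured or naive array, so only a CNS group let them pass the filter. Ly6g, the surface marker, was lower by −2.45, and the decoy receptor gene Il1r2 fell by 3.96 on the log2 scale. The summed neutrophil list was 6.87, 7.27 and 7.03 in culture and 8.08, 6.81 and 6.63 after transfer.

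Of 8 dendritic cell markers 4 were higher, against 12.8% over all genes. Itgax, the CD11c gene, led with 3.88, and 2 of the 4 were well above background on all 6 arrays. Fscn1, which bundles actin, was lower by −1.19 (adjusted p = 0.0417), a call lost without any 1 of the 6 arrays (0.0536 to 0.121). B cell markers were 4 lower and 0 higher of 6, against 15.5% and 12.8% over all genes. Ms4a1 and Ebf1 were not well above background on any transferred array. Of 8 CD8 and natural killer cell markers Klrb1c, the NK1.1 gene, rose at least 6.13-fold and Cd8b1 was lower by −1.06 (adjusted p = 0.0316), a call lost in 4 of the 6 fits without 1 array (0.0533 to 0.118). Cd8a was well above background on 1 of 3 transferred arrays. Of 12 neural and glial markers 4 were higher and 0 lower, against 12.8% and 15.5% over all genes. The higher ones included Slc1a3, Ptgds and Gfap, at least 3.8-fold, 10.3-fold and 2.63-fold. Klrb1c, Slc1a3 and Gfap were not well above background on any cultured or naive array. They passed the filter only through a CNS group, which fixes their direction. The summed neural list was 4.60 to 4.82 in culture and 3.50 to 4.57 after transfer. Flt1, a vascular growth factor receptor gene that monocytes also express, rose by 7.15, while Cdh5 and Pecam1, which mark endothelium, were not called. Of 2 erythroid genes 0 were called.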

How the data were processed

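Each array carried Cy3-labelled cRNA of 1 sample, per the labels' protocols. The deposited intensity values are those of Agilent Feature Extraction 10.7.3.1 with protocol GE1_107_Sep09, per the file headers, background-subtracted and detrended within each array. Intensity values of the deposited series matrix, whose normalization is not given in the sources used here, served as an alternative. Of 39429 non-control probes 39405 were used, after leaving out spots marked as outliers. Levels were log2 intensity minus the 75th percentile over probes of the same array. Genes were named by RefSeq accession (27223 probes), current symbol (3573), synonym (565) or the name in the file (8044). A gene took its probe with the highest mean, and was tested where some group had it well above background on each of its 3 arrays.

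One linear model was fitted to all 12 arrays with limma 3.58.1 in R 4.3.3 with data.table (1.17.8), with 8 residual and 2.485 prior degrees of freedom. Tests were two-sided. Benjamini-Hochberg adjusted p-values were taken over all 18630 genes and called under 0.05. Where an array of the dim group was not well above background, a fold is a lower bound against the lowest signal well above background on each array. Figures were drawn with matplotlib 3.10.9, and tables and promoters read with pandas 2.3.3 and numpy 2.4.6, in Python 3.11.15.

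The samples, 34 gene lists and their members, and the named genes' rule were all chosen with earlier results of these data known. The rule named the key members of each list, up to 5 called members with the largest change, among non-overlapping genes the 8 strongest rises and 8 strongest falls detected on each of the 6 arrays, the 6 largest bounds each way, and Apoe, Fosb, Csf2, Il17f and Enpp2. Other list members were named after their values were seen. Some genes that the rule names are not reported here. In simulated data with the same groups of arrays and normal noise, all other genes of the 18630 had the same mean in every group. There 44 of 100 genes changed by log2 1 and 79 of 100 changed by log2 2 were recovered, with 9 false calls. The simulation changed a far smaller share of genes than was called in the data, so these rates may not hold for this comparison. Alternatives were other background corrections, scalings, filters and probe rules, the 6 arrays alone, slide as a block, a stricter threshold and leaving out each array.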

Additional observations from a re-analysis of the deposited data

How the results depend on the processing

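The counts of genes higher and lower, 2385 and 2882, ranged over 1733 to 2354 and 1907 to 2942 when 1 array was left out, lowest without transferred replicate 3. Relative to the T cell core they were 4510 and 718, at an adjusted p under 0.01 they were 1346 and 1341, and with only the 6 arrays compared the lower count was 1622. All other settings kept both counts within 1.5 times. Median scaling moved the median of all genes to −0.21. With the replicate block (slide) they were 2337 and 2732. The deviations of same-numbered samples correlated at 0.05, 0.12 and 0.11, so the numbers were not taken to pair the samples, and not every sample correlated best with its own number. The block ended 6 of the calls of named genes, among them those of Fscn1, Nfkbia, Slc7a11, Tnf and Tnfaip3, and added that of Lck among others.

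Lower T cell core genes numbered 1 after T cell core centring, 10 with the block and 3 at the stricter threshold. With only the 6 arrays, the counts were 1 higher and 1 lower for Th17 receptors, 7 higher for interferon-stimulated genes, 5 lower for glycolysis and 4 lower for the hypoxia response. At the stricter threshold they were 1 higher for Th17 receptors, 7 for interferon-stimulated genes and 5 lower for glycolysis. T cell core centring left 2 lower for glycolysis and 4 for the hypoxia response. The filter on all 6 arrays left 6 higher for other T cell cytokines and 6 for microglia markers. Leaving out 1 array gave 3 to 5 lower Th17 factors, 7 to 14 higher interferon-stimulated genes and 6 to 14 lower glycolysis genes. The detection classes with 2 of 3 arrays held 150 higher and 0 lower genes detected on some arrays. Of the named genes 2 changed sign while called in the main fit or in the changed setting. They were Itgam by the mean over its probes (1.42), and Ldha after T cell core centring (0.01). Others changed sign without a call in any setting, among them Hk2 (−0.43 to 0.43), Il21 (−0.23 to 0.65) and Pdcd1 (−0.54 to 1.18). Of 185 called named genes, 133 kept their call in every setting and 52 lost it in at least 1. Of the 216 named genes, 19 had no call in the main fit but passed in at least 1 other setting, among them Lag3, Ccr6 and Foxp3. The filter, centring and subsets act by their construction on which genes or arrays enter, and other causes were not tested.

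Signals near background limit Il2, Xcl1, the C1q genes and others to bounds, and 3 arrays a group limit the rest.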

Other observations

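After transfer, Il4, Il13 and 4 of the 5 alternatively activated macrophage markers were highest on replicate 3. Il4 was −1.46, −7.09 and 2.88 in culture and 2.40, −0.25 and 3.54 after transfer, and Il13 was −2.44, −6.12 and 1.51 in culture and 0.49, −0.84 and 3.92 after transfer. In transferred cells Retnla was 0.01, −3.22 and 4.58, Clec10a 0.49, 0.39 and 3.19, Arg1 6.04, 6.45 and 7.59 and Chil3 8.21, 8.51 and 8.65. Mgl2, the fifth marker, was 6.42, 6.22 and 6.34, with replicate 1 highest. Transferred replicate 3 was also the highest for Il6 and Csf2, but not for Il1b or Ifng. Whether any of these orders are linked was not tested. In immunised mice the Retnla mean was −7.38 and the Il4 mean −3.02.

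Gzma, a granzyme of cytotoxic lymphocytes, was 5.51, −0.58 and 7.89 in culture and 5.12, 3.68 and 1.92 after transfer. Batf3 was 5.24 on cultured replicate 3 against 2.44 and 1.86 on the others.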
